A study of Mus musculus with 103 samples.

Results

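Rec8 is the kleisin subunit that closes the cohesin ring in meiosis, and its RNA was followed here with that of 7 other genes of the germ line. The 8 genes were chosen by symbol (Rec8, Stag3, Smc1b, Sycp3, Sycp1, Dazl, Ddx4 and Mael), and all 8 were found among the 23339 RefSeq genes of the RNA-seq tables. They were picked because Rec8 RNA had been seen to be higher after deletion of Ctcf, alone or with Wapl, in these same libraries. Values in those comparisons are therefore given as a description, with no test. The question was whether Rec8 was higher alone or together with other germline genes.

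Cohesin is a ring of an Smc1 protein, an Smc3 protein and a kleisin, bound by a Stag protein, and it holds sister chromatids together and folds chromosomes into loops. Somatic cells use the kleisin Rad21 with Smc1a and Stag1 or Stag2, while germ cells in meiosis add Rec8, Smc1b and Stag3. Ctcf halts cohesin at its binding sites, and Wapl releases cohesin from DNA. In somatic cells many germline genes are held silent by promoter DNA methylation and by repressor complexes that bind E2F-type and E-box motifs.

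The cells were quiescent mouse embryonic fibroblasts of the C57BL/6 strain from E13.5d embryos, rested for 10 d. Adeno-Cre, an adenovirus that expresses the Cre recombinase, was applied for 4 h to Ctcf(fl/fl) Wapl(fl/fl) cells, to Ctcf(fl/fl) cells and to wild-type cells, and each was set against untreated cells of the same genotype. Hydroxytamoxifen (4-OHT), which activates a Cre-ER fusion expressed from Rosa26, was given for 2 to 3 d to Rosa26(CreER/+) cells with Smc3(fl/fl) alleles (clone 1) or Smc3(fl/-) alleles (clones 2 to 4), with Wapl(fl/-) alleles, or with no floxed gene, again against untreated cells. So the treated wild-type and Cre-ER cells had met the same Cre source as the deleted cells. Polyadenylated RNA was read in 27 libraries of 12 groups in the main table. The Adeno-Cre Ctcf(fl/fl) Wapl(fl/fl) group held 1 library there (clone 4) against 2 untreated ones (clones 3 and 4), both Smc3 groups held 4, and the other groups held 2. Treated and untreated libraries with the same clone number came from the same clone, and p-values measure only the spread between these libraries.

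Depth ran from 7.7 to 37.7 M reads in genes per library. RPKM, the deposited unit, is a read number scaled to gene length and library size. Ctcf had 3.76 RPKM in the Adeno-Cre Ctcf(fl/fl) Wapl(fl/fl) library, against 9.26 and 12.5 RPKM untreated, and 4.23 and 4.04 RPKM in Adeno-Cre Ctcf(fl/fl) libraries, against 13.2 and 11.6 RPKM untreated. Wapl, listed as Wapal, had 1.52 RPKM in the Adeno-Cre Ctcf(fl/fl) Wapl(fl/fl) library, against 2.72 and 3.92 RPKM untreated, and 0.780 and 0.914 RPKM in 4-OHT Wapl(fl/-) libraries, against 1.80 and 1.48 RPKM untreated. Smc3 had 10.9 to 13.2 RPKM in 4-OHT Smc3-floxed libraries, against 7.62 to 10.5 RPKM untreated. Whole-gene RPKM includes exons outside the deleted stretch, which the sources used here do not give, so it checks nothing for Smc3. A separate table held 2 more libraries, both labelled as clone 3 of Adeno-Cre Ctcf(fl/fl) Wapl(fl/fl) cells and told apart by the laboratory numbers 28014 and 28018. The name of that table refers to serum stimulation, while the labels of both libraries give resting cells and no serum. Whether serum was added was not tested. The library labelled 28018 went against its label, with 7.61 RPKM of Ctcf and 2.09 RPKM of Wapal, while library 28014 had 3.17 and 0.902 RPKM. All 9 fibroblast markers were expressed in the main table, with a summed level of 7454 to 16667 RPKM. In Adeno-Cre Ctcf(fl/fl) Wapl(fl/fl) cells 3 of the 9 fell, where 5.34% of 12604 tested genes fell. The sum there was 7454 RPKM, against 7586 and 12885 RPKM untreated.

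The promoters of Rec8 and of 3 other genes are shown because the 3 hold motifs of germline repressors that the Rec8 window does not. Each is RefSeq sequence of build GRCm38.p6, from 250 bases before to 50 bases after the gene's start, on the gene's own strand. Capitals mark GCGGGAA, an E2F-type motif, or its reverse complement, and CACGTG, an E-box. Both were searched on both strands, and their matches did not overlap.
Rec8 (chr14:55617916-55618215, plus strand): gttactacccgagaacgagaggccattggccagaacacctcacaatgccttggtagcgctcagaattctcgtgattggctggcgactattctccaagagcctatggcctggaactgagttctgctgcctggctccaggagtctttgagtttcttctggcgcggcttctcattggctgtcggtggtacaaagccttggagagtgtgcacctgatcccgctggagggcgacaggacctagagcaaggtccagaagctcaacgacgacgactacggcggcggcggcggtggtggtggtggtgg
Stag3 (chr5:138280259-138280558, plus strand): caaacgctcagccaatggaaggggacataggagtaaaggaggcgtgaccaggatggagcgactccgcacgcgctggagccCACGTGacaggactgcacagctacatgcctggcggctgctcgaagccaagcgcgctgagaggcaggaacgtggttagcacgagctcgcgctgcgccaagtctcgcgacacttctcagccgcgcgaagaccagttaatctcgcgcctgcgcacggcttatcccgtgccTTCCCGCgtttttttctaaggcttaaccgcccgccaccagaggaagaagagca
Sycp3 (chr10:88459337-88459636, plus strand): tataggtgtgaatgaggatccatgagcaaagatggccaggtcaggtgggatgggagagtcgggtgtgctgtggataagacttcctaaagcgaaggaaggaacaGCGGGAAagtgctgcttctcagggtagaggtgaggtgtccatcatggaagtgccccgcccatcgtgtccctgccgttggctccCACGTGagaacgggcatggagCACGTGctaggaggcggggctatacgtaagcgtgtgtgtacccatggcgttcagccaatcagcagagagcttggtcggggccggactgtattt
Ddx4 (chr13:112652261-112652560, minus strand): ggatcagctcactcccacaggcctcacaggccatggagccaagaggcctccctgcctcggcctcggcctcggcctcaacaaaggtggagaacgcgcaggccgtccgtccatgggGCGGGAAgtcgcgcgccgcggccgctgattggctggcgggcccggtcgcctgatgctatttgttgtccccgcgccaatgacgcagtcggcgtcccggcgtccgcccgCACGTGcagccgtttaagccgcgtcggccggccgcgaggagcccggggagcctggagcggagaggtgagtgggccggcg

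The Rec8 window, 300 bases long, held neither motif. The lack was not particular to Rec8. The window of Dazl, which had 10 reads in all 27 libraries, also held neither, nor did that of Mnd1, a germline gene outside the 8. GCGGGAA lay in the windows of Stag3, Smc1b, Sycp3 and Ddx4, and in 4.66% of the windows of 27025 genes. CACGTG lay in those of Stag3, Sycp3, Sycp1, Ddx4 and Mael, and in 7.24% of all windows. The observed over expected CpG ratio was 0.716 for Rec8, between 0.666 for Sycp3 and 1.08 for Smc1b, against a median of 0.3885 over all windows. An interferon response core and a CTCF core were also searched, and the Rec8 window held neither. Among the 8 genes the first lay only in the Sycp1 window and the second only in the Dazl window. They lay in 3.49% and 2.41% of all windows, in that order. All these are descriptions of letters in a window and do not show binding.

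Rec8 was far higher in Ctcf(fl/fl) Wapl(fl/fl) cells that had received Adeno-Cre. It had 24.4 RPKM (944 reads) in the Adeno-Cre library of clone 4, against 0.0267 RPKM (2 reads) and 0.140 RPKM (5 reads) in the untreated libraries of clones 3 and 4. Within clone 4 the ratio was 175, with an exact 95% interval of 74.8 to 540. This and the other intervals cover counting error only. On the log2(RPKM + 1) scale of the linear model, which understates changes of low genes, the difference was 4.56 (SE 0.30) and rests on 1 treated library. In bulk RNA, more cells with Rec8 RNA and more Rec8 RNA per cell cannot be told apart.

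A second clone in the separate table was also high. Rec8 had 15.3 RPKM in library 28014, but 0 RPKM in the library labelled 28018. With that library the Adeno-Cre libraries of this genotype ran from 0 to 24.4 RPKM, and without it they had 15.3 RPKM in clone 3 and 24.4 RPKM in clone 4. The tables were normalized apart, so these levels are only set side by side.

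Deletion of Ctcf alone went with a smaller and more uneven difference. Rec8 had 2.11 RPKM (160 reads) in clone 1 and 0.384 RPKM (17 reads) in clone 2 of the Adeno-Cre Ctcf(fl/fl) libraries, against 0.0957 RPKM (8 reads) and 0 RPKM in the untreated libraries of these clones. The groups, of 2 libraries each, did not overlap, which was not counted over all genes. The ratio was 22.01 in clone 1, with an exact 95% interval of 10.9 to 51.9, and in clone 2 Rec8 was at least 5.75-fold higher, with 3 reads per library as the floor. The log2 difference was 0.99 (SE 0.25). It was 0.40 without Adeno-Cre clone 1 and 1.57 without Adeno-Cre clone 2, so it depends on which clone is read. The log2 difference in Ctcf(fl/fl) Wapl(fl/fl) cells exceeded it by 3.57 (SE 0.39), a description that was not tested.

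Adeno-Cre also went with more Rec8 RNA in wild-type cells. Rec8 had 0.883 RPKM (46 reads) and 1.51 RPKM (75 reads) in Adeno-Cre wild-type libraries, against 0.129 RPKM (6 reads) and 0.397 RPKM (19 reads) untreated. With 2 libraries each, these groups did not overlap, which was not counted over all genes. The ratios were 6.83 in clone 2 (exact 95% interval 2.91 to 19.6) and 3.81 in clone 3 (2.28 to 6.68). The log2 fold change of 0.79 (SE 0.25) missed the threshold of 0.05, with a limma adjusted p of 0.0874. With the clone as a block it passed, with a limma adjusted p of 0.0189 and the same fold change, where 23% of 12604 genes passed in the blocked fit. In the unblocked fit 3.24% of 12604 genes changed in this comparison and 2.7% rose. The change in Ctcf(fl/fl) cells minus that in wild-type cells was 0.19 (SE 0.35), and the change in Ctcf(fl/fl) Wapl(fl/fl) cells minus that in wild-type cells was 3.76 (SE 0.39). Both differences use the comparisons by which Rec8 was chosen and were not tested.

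**Figure D1:**
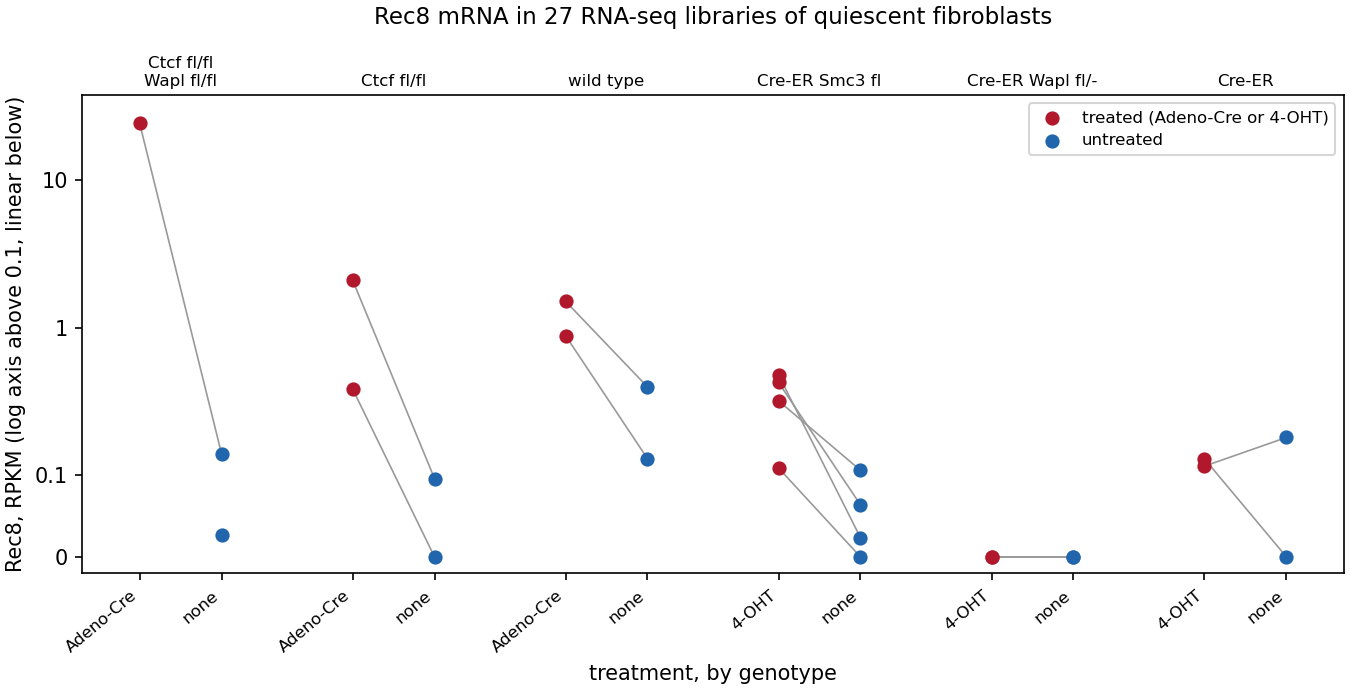
Rec8 RPKM in each of 27 RNA-seq libraries (points) by genotype and treatment, with treated cells left of untreated ones and lines joining libraries of the same clone. The vertical axis is logarithmic above 0.1 RPKM and linear below. The Adeno-Cre library of Ctcf(fl/fl) Wapl(fl/fl) cells stands at 24.4 RPKM, and the next highest library, Adeno-Cre Ctcf(fl/fl) clone 1, at 2.11 RPKM.

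With 4-OHT, Rec8 stayed below 0.5 RPKM in every library. It had 0.112, 0.425, 0.479 and 0.319 RPKM in 4-OHT Smc3-floxed libraries of clones 1 to 4, against 0, 0.0636, 0.0234 and 0.108 RPKM untreated. Its listed values were higher with 4-OHT in 4 of 4 clones, but none rests on more than 24 reads. The 0 reads of untreated clone 1 allow up to 0.174 RPKM, above the 0.112 RPKM of 4-OHT clone 1. The log2 fold change was 0.34 (SE 0.18, limma adjusted p = 0.220), in a comparison where 15% of 12604 genes changed, 9.37% rose and 5.6% fell. With a pseudocount of 0.1 in place of 1, the log2 difference was 1.501 and passed the threshold (limma adjusted p = 0.0473). In Cre-ER cells with no floxed gene, Rec8 had 0.129 and 0.115 RPKM with 4-OHT, against 0 and 0.180 RPKM untreated, and the groups overlapped (0.05, SE 0.25, limma adjusted p = 1). There, limma called 0 of 12604 genes (0%), and 41 had an unadjusted p under 0.05. The Smc3 change exceeded the Cre-ER change by 0.29 (SE 0.30, limma adjusted p = 0.850).

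Wapl(fl/-) cells gave no Rec8 read in any of 4 libraries. At their depth a count of 0 allows up to 0.0682 and 0.0879 RPKM with 4-OHT, against 0.0788 and 0.0891 RPKM untreated. In this comparison 2.43% of 12604 genes changed, 1.5% rose and 0.928% fell. Rec8 was not detectable at this depth after 4-OHT in these cells.

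Ordered by mean, the 24.4 RPKM of the Adeno-Cre Ctcf(fl/fl) Wapl(fl/fl) library came first. The Adeno-Cre Ctcf(fl/fl) group had 1.25 ± 1.22 RPKM (SD, n = 2) and the Adeno-Cre wild-type group 1.20 ± 0.444 RPKM (SD, n = 2), and these overlapped. The 4-OHT Smc3-floxed group had 0.334 ± 0.162 RPKM (SD, n = 4), below every Adeno-Cre wild-type library, and overlapped the untreated wild-type group at 0.263 ± 0.189 RPKM (SD, n = 2). The 4-OHT Cre-ER group followed at 0.122 ± 0.00968 RPKM (SD, n = 2), just under the lower untreated wild-type library. The untreated Cre-ER, Ctcf(fl/fl) Wapl(fl/fl), Smc3-floxed and Ctcf(fl/fl) groups had means from 0.0900 to 0.0479 RPKM and overlapped their neighbours in the order.

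The other meiotic cohesin subunits did not reach levels like those of Rec8. Stag3, the meiotic Stag protein, ranged from 0.0464 to 0.703 RPKM over 27 libraries, with its highest value in a 4-OHT Cre-ER library. It had 0.113 RPKM in the Adeno-Cre Ctcf(fl/fl) Wapl(fl/fl) library, below the 0.149 and 0.325 RPKM untreated. It had 0.0639 and 0.0768 RPKM in Adeno-Cre Ctcf(fl/fl) libraries, inside the untreated values of 0.0464 and 0.194 RPKM. Smc1b, the meiotic Smc1 protein, had 17 reads in all 27 libraries together. It had 0.0131 RPKM (1 read) in the Adeno-Cre Ctcf(fl/fl) Wapl(fl/fl) library, against 0 and 0.0142 RPKM (1 read) untreated. Smc1b had 0.02002 RPKM (3 reads) and 0.0229 RPKM (2 reads) in Adeno-Cre Ctcf(fl/fl) libraries, against 0.00606 RPKM (1 read) and 0 RPKM untreated, too few reads to separate the groups.

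Genes of the synaptonemal complex, which joins homologous chromosomes, were low throughout. Sycp3, a protein of the chromosome axis, had 0.237 RPKM in the Adeno-Cre Ctcf(fl/fl) Wapl(fl/fl) library, between the 0.0732 and 0.357 RPKM untreated. It had 0.169 and 0.207 RPKM in Adeno-Cre Ctcf(fl/fl) libraries, between the 0.241 and 0.163 RPKM untreated. It had 0.715, 0.299, 0.365 and 0.542 RPKM in 4-OHT Smc3-floxed libraries of clones 1 to 4, against 0, 0.233, 0.300 and 0.0493 RPKM untreated. These were higher in 4 of 4 clones, and the lowest treated library overlapped the highest untreated one. They rest on 21, 5, 10 and 13 reads with 4-OHT, against 0, 4, 7 and 1 untreated. The 0 reads of untreated clone 1 allow up to 0.318 RPKM. Sycp1, which bridges paired axes, had 1 read in all 27 libraries, in an untreated Ctcf(fl/fl) Wapl(fl/fl) library.

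The germ-cell RNA regulators were also near 0. Dazl, an RNA-binding protein that promotes translation in germ cells, had 0.0539 RPKM (3 reads) in the Adeno-Cre Ctcf(fl/fl) Wapl(fl/fl) library, against no read untreated. It had 1 and 2 reads in Adeno-Cre Ctcf(fl/fl) libraries, against no read untreated, and 10 reads in all 27 libraries. Mael, a protein of the piRNA pathway that silences transposons, had no read in any of the 27 libraries. Ddx4, the Vasa helicase of the germ granule, had 0.447 RPKM in the Adeno-Cre Ctcf(fl/fl) Wapl(fl/fl) library, against 0.115 and 0.181 RPKM untreated. Ddx4 reached the same level in Adeno-Cre wild-type libraries, at 0.442 and 0.464 RPKM (32 reads each), against 0.109 RPKM (7 reads) and 0.270 RPKM (18 reads) untreated. It stayed at 0.142 and 0.0651 RPKM in Adeno-Cre Ctcf(fl/fl) libraries, against 0.0861 and 0.0641 RPKM untreated.

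Library 28014, where Rec8 had 15.3 RPKM, held little of the others. Ddx4 had 0.307 RPKM there, Stag3 0.0571 RPKM, Mael 0.0195 RPKM and Dazl 0.0103 RPKM. Sycp3, Smc1b and Sycp1 were listed at 0.

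**Figure D2:**
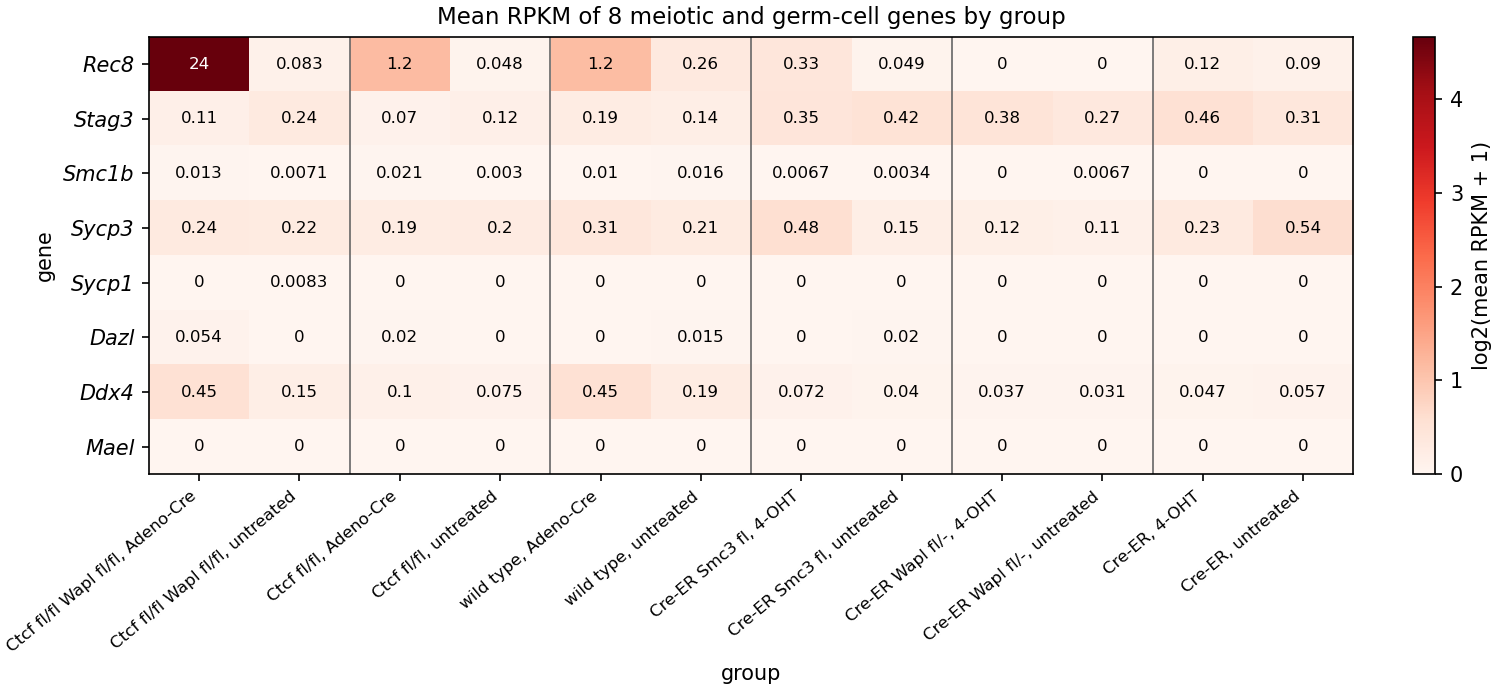
Mean RPKM (numbers) and log2(mean RPKM + 1) (colour) of the 8 genes, down the page, in the 12 RNA-seq groups, with each treated group left of its untreated group. Rec8 alone has group means above 1 RPKM, in the 3 Adeno-Cre groups, and Mael is at 0 in all groups.

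Of the 8 genes, only Rec8 passed the filter of at least 1 RPKM in at least 2 libraries, and it did so through 3 Adeno-Cre libraries. The other 7 stayed at or under 0.715 RPKM in all 27 libraries. With the filter dropped, limma called 2 of them outside the Ctcf comparisons. Ddx4 rose with Adeno-Cre in wild-type cells by a log2 fold change of 0.29 (SE 0.06, limma adjusted p = 0.00693), where 3.54% of 20123 genes changed. Sycp3 rose in 4-OHT Smc3-floxed cells by 0.37 (SE 0.10, limma adjusted p = 0.0317), where 9.16% of 20123 genes changed. That call rests on 49 reads among 81.8 M with 4-OHT, against 12 among 57.5 M untreated. The Sycp3 change there exceeded that in Cre-ER cells by 0.70 (SE 0.18, limma adjusted p = 0.0987). None of the 8 genes was called in 4-OHT Cre-ER or Wapl(fl/-) cells without the filter, where 0.00497% and 1.84% of 20123 genes changed.

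A wider set of 88 germline genes was read in 6 lists: meiotic axis and synapsis, meiotic entry and recombination, the piRNA pathway and germ granule, germline genes silenced by DNA methylation, germ-cell and pluripotency markers, and late spermatogenesis. Of the 81 found in the table, 70 stayed under 1 RPKM in all 27 libraries. Rad21l, the other meiotic kleisin, had no read in any library, nor had Hormad1, Syce3, Tex11, Tex12 and Spata16. The 13 germ-cell and pluripotency markers summed to 2.07 RPKM in the Adeno-Cre Ctcf(fl/fl) Wapl(fl/fl) library, against 0.451 and 1.22 RPKM untreated. They summed to 1.44 and 1.46 RPKM in Adeno-Cre Ctcf(fl/fl) libraries, against 0.930 and 1.37 RPKM untreated, and the highest sum, 2.89 RPKM, lay in an untreated Wapl(fl/-) library. Pou5f1 and Dppa3 were at 0 in 26 of 27 libraries each.

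In Adeno-Cre Ctcf(fl/fl) Wapl(fl/fl) cells, 3 of the 11 tested germline genes outside the 8 rose and none fell, where 15.8% of 12604 genes changed, 10.5% rose and 5.34% fell. This comparison has 1 treated library, which the fit assumes to vary like those of the other groups. Mnd1, which with Psmc3ip helps the meiotic recombinases pair DNA strands, had 7.79 RPKM, against 0.251 and 0.197 RPKM untreated. Adeno-Cre libraries of cells with floxed Ctcf were enough for it to pass the filter, so its place among the 11 is no independent support. Its log2 fold change was 2.84 (SE 0.27, limma adjusted p = 1.1e-06). Tdrkh, a piRNA-pathway protein, had 1.44 RPKM, against 0.350 and 0.733 RPKM untreated (0.67, SE 0.22, limma adjusted p = 0.0417). Library 28014, with the same labelled genotype and treatment, had 0.569 RPKM of Tdrkh. That lies inside the untreated range, but the library was normalized apart, so the levels are only set side by side. Crem, a transcription factor of spermatids that somatic cells also make, had 2.14 RPKM, against 1.04 and 1.07 RPKM untreated (0.61, SE 0.20, limma adjusted p = 0.0462). In wild-type cells Crem had 1.58 and 1.63 RPKM with Adeno-Cre, against 0.859 and 0.621 RPKM untreated (0.58, limma adjusted p = 0.0585). Psmc3ip itself had a log2 change of 0.01 (SE 0.30, limma adjusted p = 0.989). The median log2 change of the 11 genes was 0.27, beside 0.17 over all genes tested. Without untreated clone 3, only Mnd1 passed, with limma adjusted p-values of 0.258 for Tdrkh and 0.143 for Crem, and without untreated clone 4 the value for Crem was 0.0672.

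After deletion of Ctcf alone 1 of the 11 genes rose, where 7.66% of 12604 genes changed and 5.04% rose, and it was again Mnd1. Mnd1 had 5.72 and 4.94 RPKM, against 0.197 and 0.523 RPKM untreated, a log2 fold change of 2.23 (SE 0.22, limma adjusted p = 2.7e-06). Its median over the 27 libraries was 0.316 RPKM, and these Adeno-Cre values alone were enough for it to pass the filter. Without the filter its limma adjusted p was 3.3e-06. With the clone as a block 3 rose, Crem and Brdt, a testis bromodomain protein, beside Mnd1, and 25% of 12604 genes passed in that fit. Mnd1 had 0.316 and 0.142 RPKM in Adeno-Cre wild-type libraries, against 0.405 and 0.0981 RPKM untreated. The Mnd1 change exceeded that in wild-type cells by 2.25 in Ctcf(fl/fl) cells (SE 0.31, limma adjusted p = 0.00042) and by 2.86 in Ctcf(fl/fl) Wapl(fl/fl) cells (SE 0.35, limma adjusted p = 7.4e-05). Between Ctcf(fl/fl) Wapl(fl/fl) and Ctcf(fl/fl) cells it differed by 0.62 (SE 0.35, limma adjusted p = 0.527). Library 28014 had 7.01 RPKM of Mnd1, and the library labelled 28018 had 0.361 RPKM.

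**Figure D3:**
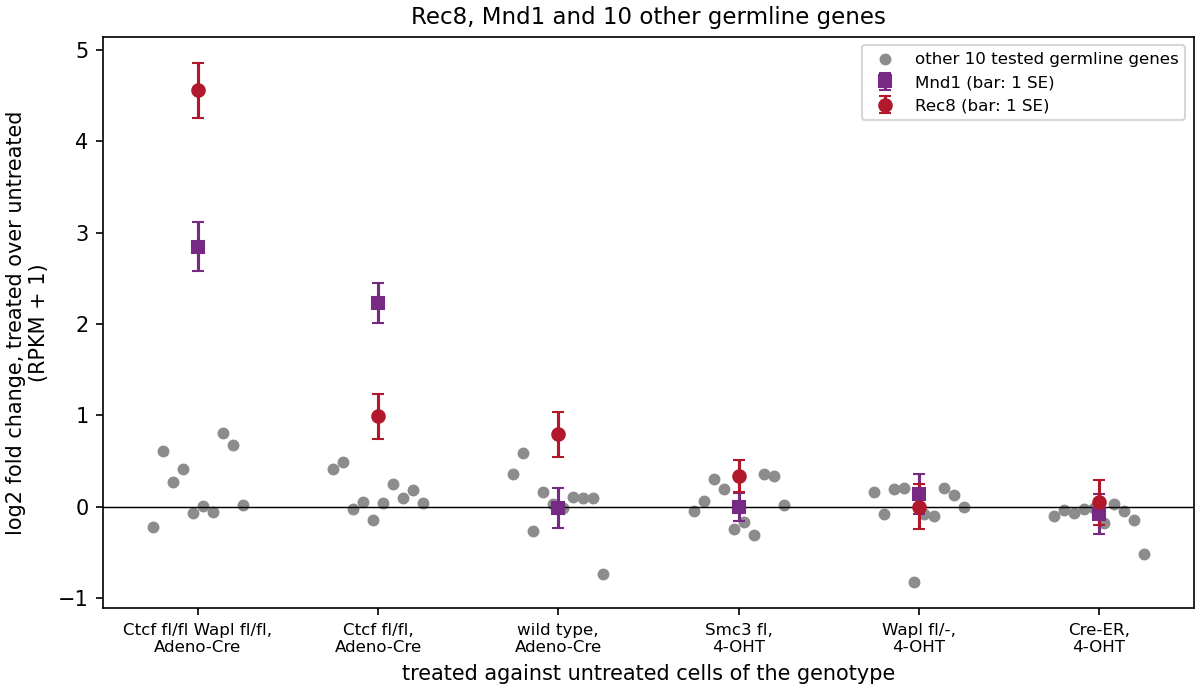
Log2 fold change on the RPKM + 1 scale, treated over untreated cells, of Rec8, Mnd1 (both with 1 SE) and the 10 other tested germline genes, in 6 comparisons. Rec8 lies at 4.56 and Mnd1 at 2.84 in the Ctcf(fl/fl) Wapl(fl/fl) comparison. In the Ctcf(fl/fl) comparison Mnd1 lies at 2.23 and Rec8 at 0.99.

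The other comparisons called few of the 11 genes. limma called 0 in Adeno-Cre wild-type cells, where 3.24% of 12604 genes changed. There, 3 of the 11 had an unadjusted p under 0.05, as had 2334 of all 12604. In 4-OHT Smc3-floxed cells limma called 0, where 15% of 12604 genes changed, with 1 at that unadjusted level, beside 3521 of 12604. In 4-OHT Cre-ER cells it called 0, where 0% changed, with 0 at that level, beside 41 of 12604. With the clone as a block, 1 passed in Adeno-Cre wild-type cells (Crem), where 23% of 12604 genes passed, and 4 in 4-OHT Smc3-floxed cells (Tdrd7, Tdrkh, Mlh3 and Odf2), where 36.6% passed. In 4-OHT Wapl(fl/-) cells Prdm1 fell, a repressor that specifies primordial germ cells and also acts in immune cells. There, 0.928% of 12604 tested genes fell. Prdm1 had 0.0900 and 0.418 RPKM, against 1.31 and 1.12 RPKM untreated (-0.83, SE 0.20, limma adjusted p = 0.0364). Those untreated values alone were enough for it to pass the filter, and without the filter its limma adjusted p was 0.0294. Without 4-OHT clone 1 its limma adjusted p was 0.578. The 10 macrophage markers summed to 724 and 1983 RPKM in the 4-OHT Wapl(fl/-) libraries, against 2359 and 3261 RPKM untreated, and their part in the Prdm1 values was not tested.

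Without the filter, 75 germline genes outside the 8 were tested. In Adeno-Cre Ctcf(fl/fl) Wapl(fl/fl) cells 12 of them (16%) rose and none fell, beside 14.4% of 20123 genes changed in either direction. The share of all genes that rose was not counted without the filter. Besides Mnd1, Tdrkh and Crem these were Tfap2c, Zp3, Tuba3a, Sohlh1, Hormad2, Tdrd9, Tdrd5, Tex19.1 and Ldhc, all under 1 RPKM. Their highest values over the 27 libraries, all in the 1 treated library, ran from 0.0405 RPKM for Ldhc to 0.998 RPKM for Tfap2c. Ldhc was at 0 in 25 of the 27 libraries, Tex19.1 in 24 and Hormad2 in 23. So these calls rest on low values in that library. After Adeno-Cre in Ctcf(fl/fl) cells 2 rose (2.67%), Mnd1 and Tfap2c, beside 4.93% of 20123 genes changed in either direction. Tfap2c, a transcription factor of primordial germ cells and of other lineages, is described because of its values. It had 0.998 RPKM in the Adeno-Cre Ctcf(fl/fl) Wapl(fl/fl) library, against 0.0177 and 0 RPKM untreated. It had 0.525 and 0.346 RPKM in Adeno-Cre Ctcf(fl/fl) libraries, against 0.0159 and 0 RPKM untreated, and 0.0511 and 0.0402 RPKM in Adeno-Cre wild-type libraries, against no read untreated. In Adeno-Cre wild-type cells 4 of the 75 rose (5.33%), beside 3.54% of 20123 genes changed in either direction. Among the 4 was Dnmt3l, a cofactor of DNA methyltransferases in germ cells. Dnmt3l had 0.982 and 0.943 RPKM there, against 0.234 and 0.0909 RPKM untreated, and 0 RPKM in the Adeno-Cre Ctcf(fl/fl) Wapl(fl/fl) library.

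The somatic cohesin genes put the Rec8 level in scale. Rad21 had 23.1 RPKM in the Adeno-Cre Ctcf(fl/fl) Wapl(fl/fl) library, where Rec8 had 24.4 RPKM, and 19.08 and 21.14 RPKM untreated. Its log2 changes lay between -0.09 and 0.20 in the 6 comparisons, and limma called none of them. In Adeno-Cre Ctcf(fl/fl) cells 5.04% of 12604 tested genes rose, and in Adeno-Cre Ctcf(fl/fl) Wapl(fl/fl) cells 10.5% rose and 5.34% fell. In the latter, 1 rose and 1 fell of the 11 tested genes of the mitotic cohesin list, Stag1 and the deleted Wapal. Stag1 had 14.6 RPKM, against 3.89 and 4.31 RPKM untreated (1.62, SE 0.23, limma adjusted p = 8.1e-05). Stag1 alone rose in Adeno-Cre Ctcf(fl/fl) cells (0.72, SE 0.18, limma adjusted p = 0.0192), a call lost when any 1 of the 4 libraries was left out (0.0685 to 0.135). In 4-OHT Smc3-floxed cells Stag1 (0.92) and Stag2 (0.44) rose and Pds5b (-0.48), a cohesin regulator, fell on the log2 scale. There, 9.37% of 12604 tested genes rose and 5.6% fell. With 1 library left out the Stag2 and Pds5b calls each held in 3 of 8 fits (limma adjusted p up to 0.116 and 0.105), and the Stag1 call held in all 8.

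Other gene groups moved in the libraries where Rec8 was high. Of 19 tested interferon-response genes, 12 rose in Adeno-Cre Ctcf(fl/fl) Wapl(fl/fl) cells, 1 in Adeno-Cre Ctcf(fl/fl) cells and 12 in Adeno-Cre wild-type cells, and none fell. Over all 12604 tested genes, 10.5%, 5.04% and 2.7% rose in these comparisons, in that order. The 20 listed genes summed to 1471 RPKM in the Adeno-Cre Ctcf(fl/fl) Wapl(fl/fl) library, against 155 and 163 RPKM untreated. Of the 1471 RPKM, Bst2 gave 909 RPKM and Isg15 338 RPKM. Wild-type libraries with Adeno-Cre had sums of 2032 RPKM (clone 2) and 1151 RPKM (clone 3), against 240 to 332 RPKM untreated. Rec8 had 0.883 RPKM in that library of clone 2 and 1.51 RPKM in that of clone 3. The sums were 1074 and 1084 RPKM in Adeno-Cre Ctcf(fl/fl) libraries, against 407 and 1054 RPKM untreated. The sum was 1393 RPKM in library 28014 and 112 RPKM in the library labelled 28018. The part of these genes in the Rec8 values was not tested.

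Of 5 tested markers of the supporting cells of the gonad, 1 rose in each Adeno-Cre comparison, Foxl2, a transcription factor of granulosa cells. Over all 12604 tested genes, 10.5% rose in Ctcf(fl/fl) Wapl(fl/fl) cells, 5.04% in Ctcf(fl/fl) cells and 2.7% in wild-type cells. Foxl2 had 3.22 RPKM in the Adeno-Cre Ctcf(fl/fl) Wapl(fl/fl) library, against 0.205 and 0.383 RPKM untreated (1.71, SE 0.19, limma adjusted p = 1.0e-05). It had 1.26 and 1.24 RPKM in Adeno-Cre Ctcf(fl/fl) libraries, against 0.222 and 0.540 RPKM untreated, and 1.88 and 1.35 RPKM in Adeno-Cre wild-type libraries, against 0.296 and 0.405 RPKM untreated. Its median over the 27 libraries was 0.222 RPKM, and these Adeno-Cre values alone were enough for it to pass the filter. With 1 library left out the call held in 2 of 2 fits in Ctcf(fl/fl) Wapl(fl/fl) cells, in 1 of 4 in Ctcf(fl/fl) cells (limma adjusted p up to 0.154) and in 2 of 4 in wild-type cells (up to 0.0958). The 9 markers summed to 17.4 RPKM in the Adeno-Cre Ctcf(fl/fl) Wapl(fl/fl) library, against 9.83 and 16.3 RPKM untreated. Adeno-Cre Ctcf(fl/fl) libraries had sums of 11.3 and 12.6 RPKM, below the 13.9 and 16.7 RPKM untreated. The 10 macrophage markers summed to 473 RPKM in the Adeno-Cre Ctcf(fl/fl) Wapl(fl/fl) library, against 81.9 and 636 RPKM untreated, and limma called 0 of the 10 in that comparison, with 0 at an unadjusted p under 0.05. The part of such cells in the Rec8 values was not tested.

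Regulators of germline silencing were tested as a list of 13 genes of the PRC1.6 complex and of DNA methylation. In Adeno-Cre Ctcf(fl/fl) Wapl(fl/fl) cells 2 rose, L3mbtl2, a PRC1.6 subunit (0.70, SE 0.19, limma adjusted p = 0.0165), and Dnmt1, the maintenance methyltransferase (0.57, SE 0.18, limma adjusted p = 0.0407). Over all 12604 tested genes, 10.5% rose in this comparison. L3mbtl2 had 8.23 RPKM in that library, against 4.12 and 5.33 RPKM untreated, and Dnmt1 had 10.9 RPKM, against 5.94 and 8.26 RPKM untreated. Library 28014 had 4.38 RPKM of L3mbtl2 and 6.77 RPKM of Dnmt1. Both lie inside the untreated range, but that library was normalized apart, so the levels are only set side by side. limma called 0 in Adeno-Cre Ctcf(fl/fl) cells, where 7.66% of 12604 genes changed, and 0 in Adeno-Cre wild-type cells, where 3.24% changed. An unadjusted p under 0.05 was reached by 0 and 1 of the 13, beside 2498 and 2334 of 12604 genes, in that order. In 4-OHT Smc3-floxed cells Dnmt1 alone of the 13 fell, by 0.33 on the log2 scale (SE 0.11, limma adjusted p = 0.0408). There, 5.6% of 12604 tested genes fell.

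Of the 7 tested neighbours of Rec8 on chromosome 14, limma called 1 in Ctcf(fl/fl) Wapl(fl/fl) cells and 1 in Ctcf(fl/fl) cells, and in both it was Mdp1, which fell. Over all 12604 tested genes, 5.34% and 2.63% fell in these comparisons, in that order. In the order of the RefSeq annotation Emc9, Psme2, Rnf31 and Irf9 lie before Rec8, and Ipo4, Tm9sf1, Tssk4 and Mdp1 after it (build GRCm38.p6). Irf9, the adjacent interferon signalling factor on the same strand, had 11.5 RPKM in the Adeno-Cre Ctcf(fl/fl) Wapl(fl/fl) library, against 9.33 and 7.83 RPKM untreated (0.38, SE 0.32, limma adjusted p = 0.456). It rose in Adeno-Cre wild-type cells to 31.6 and 23.5 RPKM, against 13.3 and 11.3 RPKM untreated (1.09, SE 0.26, limma adjusted p = 0.0281), a call lost in 3 of 4 fits that left out 1 library. Ipo4, the adjacent nuclear import factor on the other strand, had log2 changes of -0.22 in Ctcf(fl/fl) Wapl(fl/fl) cells and 0.18 in Ctcf(fl/fl) cells (limma adjusted p = 0.347 and 0.477). Whether the reads were counted by strand is not given in the sources used here.

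Mdp1, a phosphatase gene at the far side of this stretch, moved the other way. It had 1.99 RPKM in the Adeno-Cre Ctcf(fl/fl) Wapl(fl/fl) library, against 13.25 and 15.1 RPKM untreated (-2.34, SE 0.18, limma adjusted p = 1.0e-07). It had 1.98 and 2.84 RPKM in Adeno-Cre Ctcf(fl/fl) libraries, against 11.3 and 13.0 RPKM untreated (-1.96, SE 0.15, limma adjusted p = 9.3e-08). In wild-type cells its change was 0.00 (SE 0.15, limma adjusted p = 0.993). Library 28014 had 1.51 RPKM of Mdp1, and the library labelled 28018 had 6.96 RPKM.

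**Figure D4:**
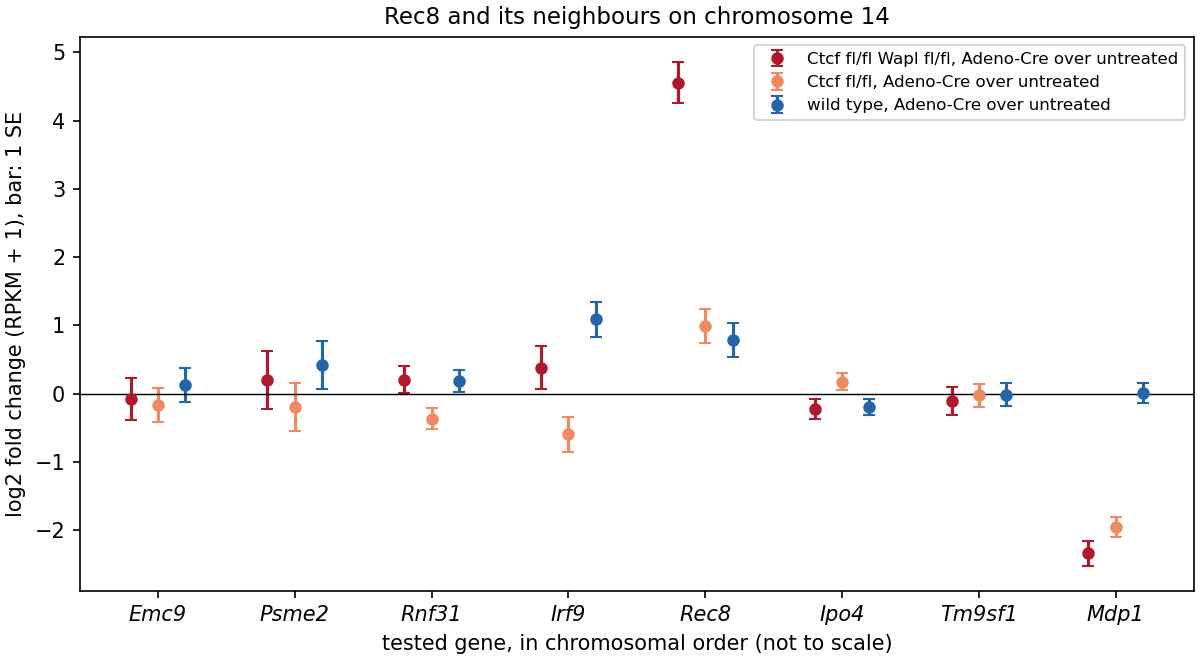
Log2 fold change on the RPKM + 1 scale, Adeno-Cre over untreated cells, with 1 SE, of Rec8 and its 7 tested neighbours in chromosomal order, for 3 genotypes. In Ctcf(fl/fl) Wapl(fl/fl) cells Rec8 lies at 4.56 and Mdp1 at -2.34, and in wild-type cells Irf9 lies at 1.09.

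The 6 genes most like Rec8 over the 27 libraries were Cldn4, Nefm, Wfdc3, Stmn4, Mtmr7 and Dsp, with Pearson correlations of log2(RPKM + 1) from 0.953 for Cldn4 to 0.911 for Dsp. These are given as a description, since all 27 points share the treatment groups. Cldn4, a tight junction protein, had 37.1 RPKM in the Adeno-Cre Ctcf(fl/fl) Wapl(fl/fl) library and 0 to 1.42 RPKM in the other 26. Nefm, a neurofilament protein, had 25.4 RPKM there and 0.0589 to 3.30 RPKM elsewhere. Without the Adeno-Cre libraries of the doubly floxed clone 4 and of Ctcf(fl/fl) clone 1, the 2 libraries farthest from the median Rec8 level, the correlation was 0.485 for Cldn4, 0.420 for Nefm and 0.868 for Mtmr7, a myotubularin-related phosphatase. The likeness of Cldn4 and Nefm thus rests mostly on those libraries. None of the 6 is on the germline lists, but of the 12604 genes that passed the filter only 11 others are, so this says little.

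GRO-seq, which reads RNA from engaged polymerases in isolated nuclei, was deposited for Ctcf(fl/fl) Wapl(fl/fl) cells as pooled columns in TPM, with no replicate error and no test. Rec8 had 3.73 TPM in Adeno-Cre cells, against 1.42 TPM in untreated cells, a ratio of 2.63. The column medians over all genes ran the other way, at 2.31 TPM with Adeno-Cre, against 3.70 TPM untreated, and 5.37% of 18635 genes were at least 2-fold higher and 36.5% at least 2-fold lower. Of the other 5 genes of the 8 listed there, none was as much as 2-fold higher. The ratio was 1.02 for Smc1b, 0.886 for Dazl, 0.709 for Ddx4, 0.513 for Sycp3 and 0.356 for Stag3. Sycp1 and Mael were not in that table. Mnd1 had 2.41 TPM, against 1.44 TPM untreated, and Mdp1 had 6.85 TPM, against 15.5 TPM untreated.

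In Adeno-Cre cells given DRB, a blocker of transcript elongation, for 3.5 h, Rec8 had 0.997 TPM, and 1 d after washout it had 3.09 TPM. These 2 columns summed to 100000 TPM where the pooled ones summed to 200000, and they were doubled here to share a scale. The untreated 1.42 TPM of Rec8 lay below the 1.87 TPM of Smc1b, which had 17 reads in all 27 RNA-seq libraries. So the reference of the nascent Rec8 ratio is no higher than that of a gene almost without polyadenylated RNA. In the pooled wild-type column Rec8 had 0.229 TPM and Smc1b 0.0464 TPM. The ratio of Rec8 in nascent RNA, 2.63, was far smaller than its ratio of 175 in polyadenylated RNA of clone 4. The assays used different clones and scales, and the difference was not tested.

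**Figure D5:**
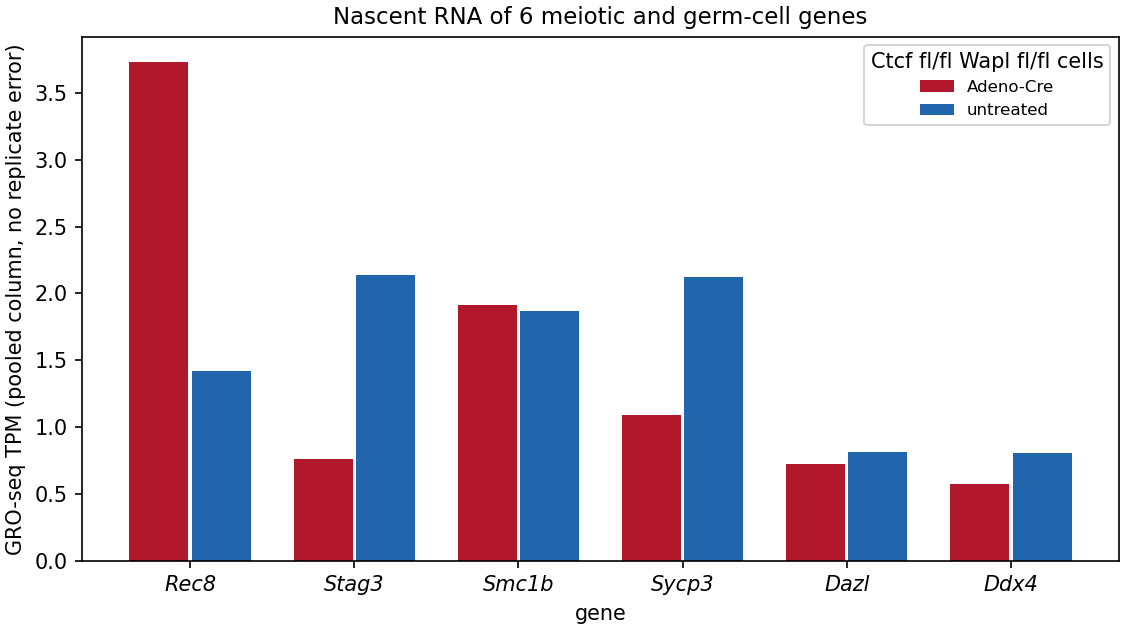
GRO-seq TPM of the 6 of 8 genes listed in that table, in Adeno-Cre (left bars) and untreated (right bars) Ctcf(fl/fl) Wapl(fl/fl) cells, from pooled columns with no replicate error. Rec8 stands at 3.73 TPM with Adeno-Cre, against 1.42 TPM untreated, and Stag3 at 0.762 TPM, against 2.14 TPM.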

How the data were processed

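Polyadenylated RNA was measured in 29 RNA-seq samples and nascent RNA in 10 GRO-seq samples of a series of 103, and the 64 ChIP-seq samples were not used here. For RNA-seq the authors deposited RPKM per RefSeq gene, per the file headers, for 27 libraries in one table and 2 in another. They deposited GRO-seq values as TPM in columns that pool libraries, per the file headers, and the libraries behind the wild-type column are not given in the sources used here. The submitters' processing notes name TopHat 1.3.1 and 1.4.1, Bowtie 0.12.5, HTSeq and build mm9, without saying which step or library each served.

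The RPKM values of 18149 of 18155 genes (99.97%) were whole multiples of 1 read within 0.02 reads, which gave the read numbers and depths of 7.7 to 37.7 M reads in genes (31.2 and 31.8 M in the separate table). The unit was kept as RPKM, so no count model was used. Values were transformed as log2(RPKM + 1), genes with at least 1 RPKM in at least 2 libraries were kept (12604), and 1 mean per group was fitted to all 27 libraries with limma 3.58.1 in R 4.3.3 (empirical Bayes with trend and robust, 15 residual degrees of freedom). Benjamini-Hochberg adjustment ran over every tested gene, and 0.05 was the threshold. The procedure was tested on simulated data. Exact 95% intervals of read ratios and floors of 3 reads came from Python 3.11.15 with scipy 1.17.1. GRO-seq columns that summed to 100000 TPM were multiplied by 2. Promoters came from the RefSeq set of GRCm38.p6, while the processing notes name mm9, and no coordinates of the files were used.

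The 8 genes and all gene lists were chosen with earlier results of these data known. The text names all 8 genes, up to 6 called genes per list and comparison or the 3 most expressed of a list, 4 neighbours of Rec8 on each side, the 6 genes most like Rec8 and the deleted genes. Tfap2c, Dnmt3l and the germline genes named from the unfiltered fit were added after their values were seen. Alternatives were a pseudocount of 0.1, no filter, a rescaling by median of ratios, the clone as a block and leaving out each library. Clone numbers pair the libraries per the labels, and the deviations of same-clone libraries from their group means correlated at 0.679 in Ctcf(fl/fl) cells, 0.759 in wild-type cells, 0.492 to 0.7 in Smc3-floxed cells, 0.468 in Wapl(fl/-) cells and -0.198 in Cre-ER cells.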

Additional observations from a re-analysis of the deposited data

Results flagged for a closer look

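Rec8 had 15.3 RPKM in library 28014 of the separate table, which enters no test, and it was not seen in the other library with the same label (0 RPKM), whose Ctcf level goes against that label.

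Sycp3 moved in opposite directions in all clones of 2 comparisons, from 21 reads or fewer per library. In Smc3-floxed clones 2 and 3 it had 5 and 10 reads with 4-OHT, against 4 and 7 untreated. Averaged over clones, it differed by 0.335 RPKM, 4-OHT minus untreated, in Smc3-floxed cells and by -0.310 RPKM in Cre-ER cells. In the unfiltered fit the difference on the log2 scale had a limma adjusted p of 0.0987, and in the filtered fit it was not tested. Smc1b differed by 0.0184 RPKM, Adeno-Cre minus untreated, in Ctcf(fl/fl) cells and by -0.00582 RPKM in wild-type cells, a difference that was not tested and rests on 3 reads or fewer per library.

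A single library stood apart from the other 3 untreated Smc3-floxed libraries for 2 genes. Smc1b had 0.0137 RPKM there in clone 4, from 1 read, and Dazl had 0.0806 RPKM in clone 1, from 2 reads, with no read in the others. Chance alone marks about 1 in 20 groups of continuous values in this way, and any group with reads in 1 library of 4 is marked, so these values say little.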

How the results depend on the processing

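With a pseudocount of 0.1 the Rec8 log2 difference was 7.14 in Ctcf(fl/fl) Wapl(fl/fl) cells and 2.89 in Ctcf(fl/fl) cells, and in 4-OHT Smc3-floxed cells it was 1.501 (limma adjusted p = 0.0473), which made Rec8 the 1 called gene of the 8 there. Leaving out 1 library gave 4.48 to 4.63 in Ctcf(fl/fl) Wapl(fl/fl) cells, 0.40 to 1.57 in Ctcf(fl/fl) cells and 0.58 to 1.00 in wild-type cells (limma adjusted p = 0.195 to 0.371). With the replicate block (clone) the Rec8 fold change in Adeno-Cre wild-type cells was 0.79 (limma adjusted p = 0.0189), which made Rec8 the 1 called gene of the 8, and without the filter that 1 gene was Ddx4. Without the filter 1 of the 8, Sycp3, was called in 4-OHT Smc3-floxed cells. Of the other germline genes, the count in Ctcf(fl/fl) cells was 1, against 2 without the filter, 3 with the block and 1 to 2 with 1 library left out. In Ctcf(fl/fl) Wapl(fl/fl) cells it was 3, against 12 without the filter, 1 with a pseudocount of 0.1, 1 after rescaling and 1 to 3 with 1 library left out. In Adeno-Cre wild-type cells it was 0, against 4 without the filter, 1 with the block and 0 to 1 with 1 library left out. In 4-OHT Smc3-floxed cells it was 0, against 1 with a pseudocount of 0.1, 2 without the filter, 4 with the block and 0 to 1 with 1 library left out. In 4-OHT Wapl(fl/-) cells it was 1, against 0 with a pseudocount of 0.1 and 0 to 1 with 1 library left out. The cause of these shifts was not tested. Crossing the clone numbers of the Cre-ER libraries in the block, an alternative chosen after seeing the data, left 0 of 12604 genes called there, as with the numbers as labelled. The block took the Tdrkh call (limma adjusted p = 0.0656) and added Tdrd7 in Ctcf(fl/fl) Wapl(fl/fl) cells, where 22.8% of 12604 genes passed with it. Rec8 after DRB washout is 1.54 TPM as deposited, against 3.09 TPM doubled. Of 176 alternative values of 23 other named results, 136 kept their side of the threshold, 40 no longer passed and 0 reversed. Reads limit the other 7 genes: Mael, Sycp1, Dazl and Smc1b had so few that a small difference could not be detected.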
